A study of Mus musculus with 7 samples.

Results

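The 37 genes described here are interferon receptors, the transcription factors of the interferon pathway, sensors of foreign or misplaced nucleic acid, and genes induced by interferon. They were taken by name from a fixed list of gene symbols with no cut on a measured value. The list was chosen with earlier results of these data known. Each symbol matched exactly 1 of the 56941 genes listed. Their transcripts were counted in single nuclei of small cell lung cancer (SCLC), a neuroendocrine lung tumor, from 4 male mice. RP1 and RP2 carried Rb1 fl/fl, Trp53 fl/fl. RPC1 and RPC2 carried the same alleles with loss of Casp8, which the labels write as Casp8-/- and which the study's methods describe as a floxed allele. In all 4 mice tumors had been induced at 8 to 12 weeks of age by inhaled adenovirus expressing Cre under the CMV promoter (Ad5-CMV-Cre), which is not limited to 1 lung cell type, so that non-tumor cells can also have recombined. Tumors were taken at endpoint and fresh-frozen. The nuclei of all animals were barcoded together and split over 7 sequenced sublibraries, each of which holds all 4 animals, so that the animal is the replicate and each genotype has 2. In every comparison of 2 with 2 animals the smallest 2-sided p of an exact permutation test is 0.333.

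Type I interferons bind a receptor made of Ifnar1 and Ifnar2, and interferon gamma binds Ifngr1 with Ifngr2. Kinases on the type I receptor lead to a complex, ISGF3, that holds STAT2 and IRF9 and binds the interferon-stimulated response element (ISRE) in the promoters of antiviral genes. Genes induced by interferon gamma often carry another motif, the gamma-activated sequence (GAS). Interferon production itself is started by sensors such as MDA5 (gene Ifih1) for double-stranded RNA and cGAS with STING for cytosolic DNA. ZBP1, a sensor of Z-form nucleic acid, is also known as a trigger of necroptosis, a form of cell death that caspase 8 holds in check.

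The promoter sequences of 28 of the 37 genes were in the RefSeq table used (build GRCm38.p6, 250 bases before to 50 after each gene's start). The ISRE core GAAANNGAAA, searched on both strands with overlaps allowed, was in 12 of these 28 genes, or 42.9%, against 3.99% of the 27025 genes in the table. The GAS motif TTCNNNGAA, which is the same on both strands, was in 9 of the 28, or 32.1%, against 9.55%. Of the genes with the ISRE core, Ifih1, Stat2, Eif2ak2, Oas3, Gbp3 and Gbp7 are not shown. The following 6 stretches are examples from the others. They are written 5′ to 3′ on the transcribed strand, with the matched bases in capitals (capitals that begin with TTTC are the core of the other strand).
Rsad2, chr12:26456551-26456584 (minus): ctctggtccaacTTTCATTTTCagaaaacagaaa
Isg15, chr4:156200863-156200908 (minus): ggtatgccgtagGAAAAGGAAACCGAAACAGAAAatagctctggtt
Ifit1, chr19:34640773-34640825 (plus): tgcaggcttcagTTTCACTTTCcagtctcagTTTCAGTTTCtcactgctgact
Ifit3, chr19:34583361-34583428 (plus): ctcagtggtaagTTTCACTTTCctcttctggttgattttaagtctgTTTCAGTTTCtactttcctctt
Oas1a, chr5:120907526-120907557 (minus): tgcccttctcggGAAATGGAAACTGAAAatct
Gbp2, chr3:142620592-142620625 (plus): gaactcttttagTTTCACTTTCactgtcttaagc
The Isg15 stretch holds 3 overlapping matches and the Ifit1 and Ifit3 stretches hold 2 each. The single match of Rsad2 starts 120 bases before the annotated start of the gene. A match of letters is a description of the window and does not show that a factor was bound there. Usp18, Mx1, Mx2, Oas2, Dhx58, Zbp1, Parp14, Parp9 and Sting1 had no entry in the table.

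After removal of poor nuclei, 38254 of 38353 remained, between 8363 and 10853 per animal, and no barcode was shared between animals. The RP nuclei were shallower, with medians of 2255 and 2223 transcripts against 3392 and 2767 in the RPC animals, and ribosomal RNA of the gene Rn18s-rs5 took 9.99% and 8.49% of their transcripts against 3.09% and 5.35%. Nuclei were grouped by clustering and by marker genes, and between 7111 and 9123 per animal were tumor-like, meaning that their cluster was not raised in the markers of another cell type. Their 14 neuroendocrine markers summed to 3884 to 5143 CPM, and some tumor-like clusters had less of them than the average of the other nuclei. CPM are transcripts scaled to a common library total. Casp8, after the TMM scaling explained below, stood at 58.7 and 61.0 CPM in RP and 89.0 and 66.3 in RPC tumor-like nuclei. These are counts over the whole gene, which an inactivating deletion of part of the gene need not lower, so they do not check the genotype labels. In the non-tumor classes the 14 neuroendocrine markers summed to between 33.9% and 82.8% of their level in the tumor-like nuclei of the same animal. Transcripts of these markers were thus counted in those classes too, and whether they were tumor RNA was not tested.

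The comparison of RPC with RP tumor-like nuclei asks which of these genes differ in level when the tumor forms without caspase 8. Rsad2, which encodes viperin, an enzyme that makes a chain-terminating nucleotide against viral polymerases, had the smallest p of the 37. Its level was 48.6 CPM in RP1 and 39.4 in RP2. In RPC1 it was 15.5 and in RPC2 15.3. Both RPC animals lay below both RP animals, and the RP level was 2.86-fold the RPC level. The log2 fold change was -1.52 ± 0.18 (SE), with an adjusted p of 0.263 by the edgeR quasi-likelihood test over all 20089 genes and of 7.71e-06 by DESeq2. No member passed the edgeR test, and none of the 20089 genes did (0%). At an unadjusted p under 0.05 there were 3 members against 15.1% of all genes. By DESeq2, 1 member passed, Rsad2, against 3.75% of the 17432 genes to which it gave an adjusted p. The members' share was thus below the background at the unadjusted threshold. The animals of RP and RPC stood apart, with no overlap, for 15 of 37 members, 6 higher and 9 lower in RPC, where 50.4% of all genes were apart in this way. The median log2 fold change was -0.13 over the members and -0.01 over all genes. Its sign depended on single animals. Without RP1 it was -0.32, without RP2 0.26, without RPC1 -0.22 and without RPC2 0.04. All CPM here and below for this comparison are scaled by TMM, a correction for the composition of each library, and may be compared between animals but not between genes, which differ in length.

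**Figure D1:**
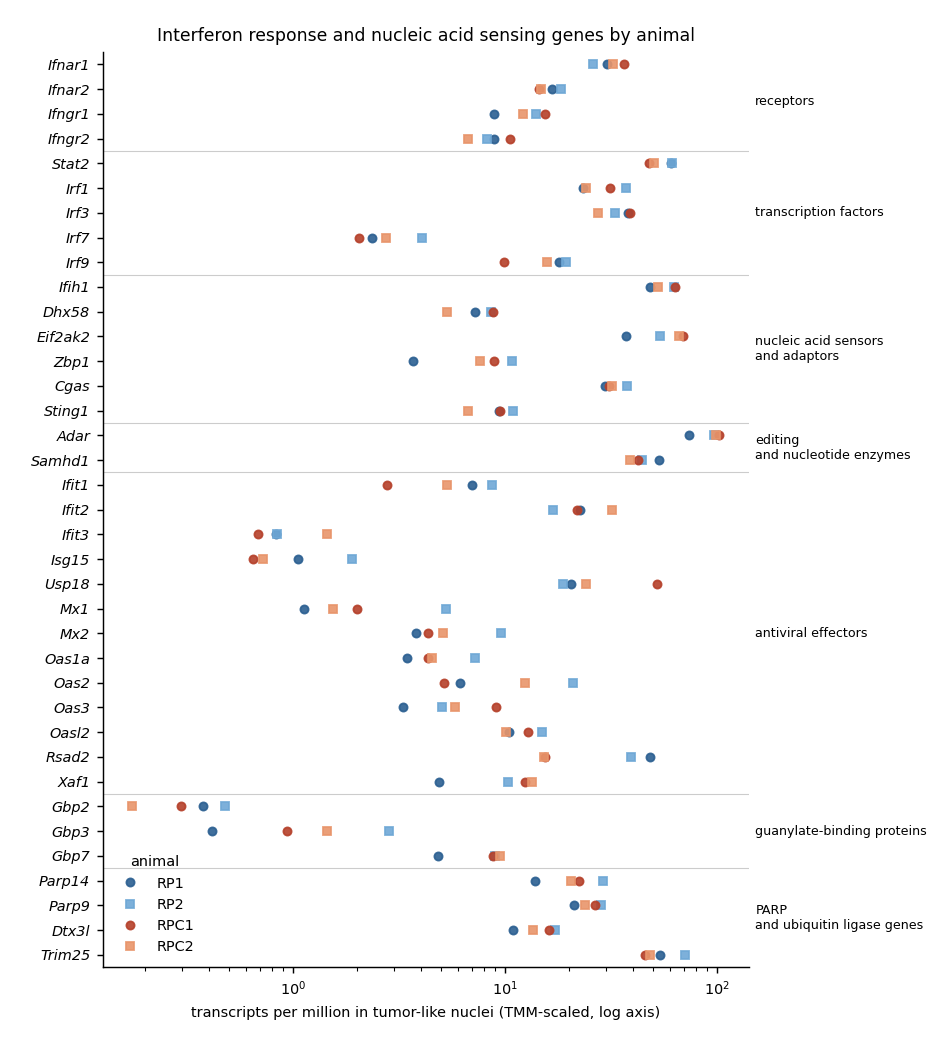
Level of each member (rows, by group) in tumor-like nuclei as TMM-scaled CPM on a log axis, with 1 point per animal and a symbol for each of the 4 animals. Rsad2 is the member whose RP points, 48.6 and 39.4 CPM, stand farthest above its RPC points, 15.5 and 15.3 CPM, and for Mx1, Oas2 and Parp14 the highest point is RP2.

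The receptor chains showed small differences in either direction. Ifnar1, the signalling chain of the type I receptor, was measured at 30.4 and 26.0 CPM in RP and 36.6 and 32.5 in RPC (log2 fold change 0.29 ± 0.18). Its partner Ifnar2 stood at 16.7 and 18.4 in RP and 14.5 and 14.9 in RPC (-0.26 ± 0.19). Both chains were apart between RP and RPC, in opposite directions. The interferon gamma chains overlapped. Ifngr1 was at 8.88 and 14.1 CPM in RP and 15.5 and 12.2 in RPC, and Ifngr2 at 8.88 and 8.26 against 10.5 and 6.71.

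All 5 transcription factors had log2 fold changes below 0, from -0.54 to -0.10, and none passed the test. Stat2, the ISGF3 subunit that carries the activation domain, was at 60.8 and 61.4 CPM in RP and 47.9 and 50.4 in RPC. Irf9, the subunit that binds the ISRE, was at 17.9 and 19.4 in RP and 9.87 and 15.8 in RPC. The genotypes were apart for these 2 genes. They overlapped for Irf1, an early interferon gamma target, for Irf3, which the sensors activate, and for Irf7, which amplifies type I interferon production and was measured at 2.05 to 4.07 CPM.

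Among the 6 sensors and adaptors the genotypes were apart for Eif2ak2 alone. It encodes PKR, a kinase that stops translation on binding double-stranded RNA. Its level was 37.4 and 53.9 CPM in RP and 69.0 and 66.4 in RPC, higher in both RPC animals, with a log2 fold change of 0.57 ± 0.21 and an adjusted p of 0.32 by edgeR. Ifih1 was at 48.4 and 62.6 CPM in RP and 63.3 and 52.7 in RPC. Dhx58, which encodes the helicase LGP2 and modulates MDA5, was at 7.22 and 8.62 against 8.74 and 5.33. Zbp1 was at 3.69 CPM in RP1 and 10.8 in RP2, with RPC1 at 8.87 and RPC2 at 7.67 between them. The 2 RP animals therefore differed more from each other in Zbp1 than either RPC animal did from RP2. Cgas was at 29.7 and 37.8 CPM in RP and 31.1 and 32.1 in RPC, and Sting1 at 9.37 and 11.0 against 9.48 and 6.71. Adar, which edits adenosine in double-stranded RNA and so limits its recognition, was at 73.6 and 97.4 CPM in RP and 103 and 98.6 in RPC. Samhd1, a hydrolase of deoxynucleotides, was at 53.2 and 44.3 in RP and 42.3 and 39.0 in RPC. These 2 enzymes were apart between the genotypes in opposite directions, by 0.24 ± 0.18 and -0.26 ± 0.17 on the log2 scale.

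The 13 antiviral effectors had a median log2 fold change of -0.28, with 5 above 0 and 8 below. The genotypes were apart for 6 of the 13, or 46.2%, where 50.4% of all genes were. The genes lower in both RPC animals were Rsad2, Isg15 and Ifit1. Isg15, a ubiquitin-like protein conjugated to other proteins, was counted only 148 times, at 1.05 and 1.91 CPM in RP and 0.645 and 0.721 in RPC (-1.11 ± 0.43, adjusted p = 0.329 by edgeR). Ifit1, which binds RNA that lacks the cap methylation of host mRNA, was at 6.96 and 8.66 in RP and 2.78 and 5.31 in RPC (-0.95 ± 0.39, adjusted p = 0.338). The genes higher in both RPC animals were Usp18, Oas3 and Xaf1. Usp18, which removes ISG15 and dampens signalling from Ifnar2, was at 20.4 and 18.8 in RP and 52.0 and 24.0 in RPC, so that RPC1 stood far above the other 3 animals (0.96 ± 0.38, and 0.30 without RPC1). Oas3, one of the synthetases whose product activates RNase L, was at 3.31 and 5.06 in RP and 9.05 and 5.79 in RPC. Xaf1, a pro-apoptotic interferon target, was at 4.89 and 10.3 in RP and 12.5 and 13.4 in RPC.

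The other effectors overlapped, and in several of them RP2 was the highest animal. Oas2 stood at 6.13 CPM in RP1 and 21.0 in RP2, against 5.14 and 12.5 in RPC. Mx1, a GTPase that blocks viral ribonucleoproteins, was at 1.13 and 5.25 in RP and 2.01 and 1.55 in RPC. Mx2 was at 3.8 and 9.58 against 4.33 and 5.09, and Oas1a at 3.46 and 7.23 against 4.32 and 4.52. In these 4 genes the 2 RP animals differed from each other more than the 2 RPC animals did, and RP1 was the lowest of all in Mx1, Mx2 and Oas1a. Oasl2 ranged from 10.1 to 14.9 CPM, and Ifit2 was highest in RPC2, at 32.0 CPM against 16.8 to 22.5 in the other animals. Ifit3 was near the limit of detection, with 148 transcripts in all and 0.682 to 1.44 CPM.

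Of the guanylate-binding proteins, interferon gamma-induced GTPases, Gbp2 and Gbp3 were rare in tumor-like nuclei. Gbp2 had 47 transcripts in all 4 animals, at 0.376 and 0.477 CPM in RP and 0.295 and 0.175 in RPC, and Gbp3 was at 0.414 in RP1 and 2.83 in RP2, on both sides of RPC1 and RPC2. Gbp7 was at 4.82 CPM in RP1 and 8.83 to 9.46 in the other 3 animals. Parp14, Parp9 and Dtx3l, an interferon-induced group of ADP-ribosyltransferases and the ubiquitin ligase that pairs with Parp9, differed by -0.01, 0.03 and 0.08 on the log2 scale, and each was lowest in RP1. Trim25, the ligase that modifies the RNA sensor RIG-I, was at 54.1 and 70.5 CPM in RP and 46.0 and 48.1 in RPC (-0.41 ± 0.18), apart between the genotypes.

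**Figure D2:**
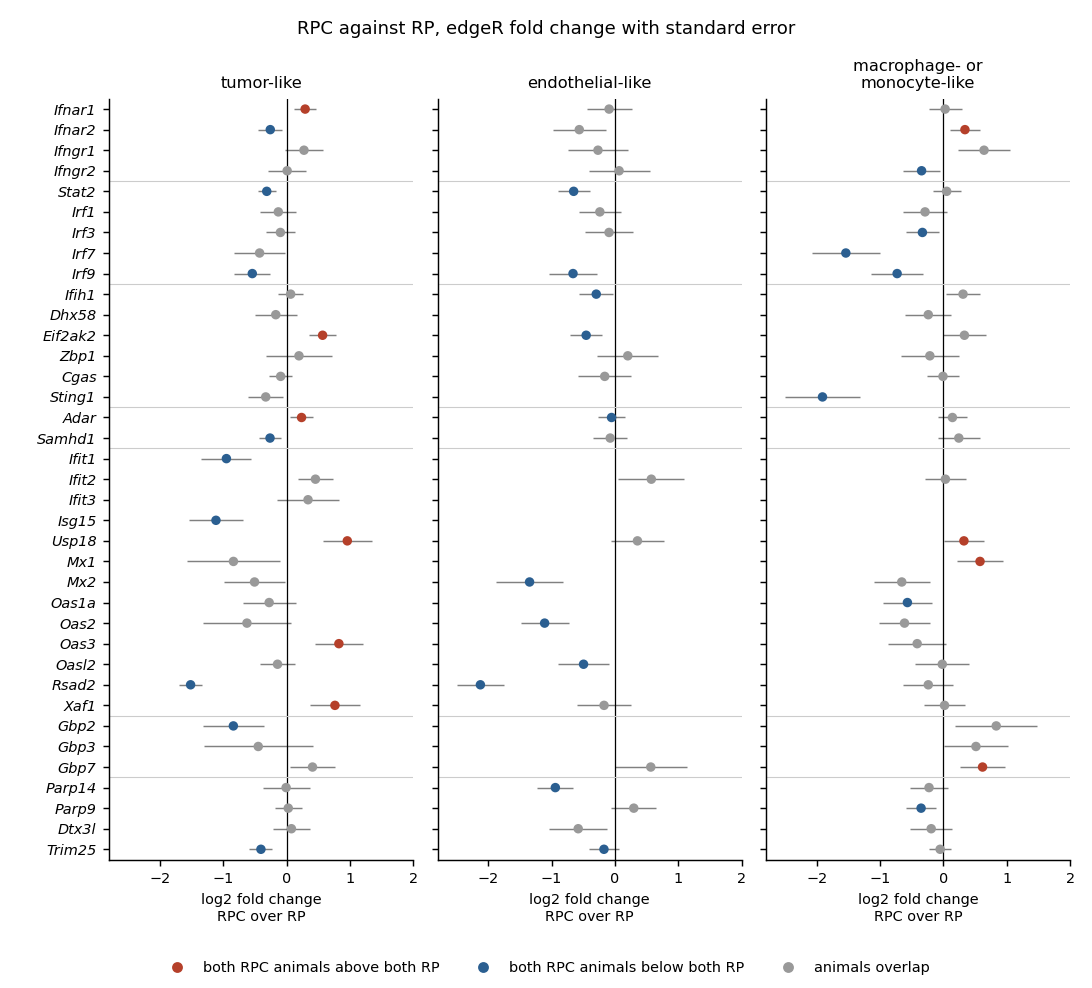
Log2 fold changes of RPC over RP for each member (points) with standard errors (bars), 1 panel for each of the 3 classes tested. Colors mark whether both RPC animals lay above, below or among the RP animals. Rsad2 lies at -1.52 in tumor-like and -2.13 in endothelial-like nuclei and at -0.24 in macrophage- or monocyte-like nuclei, and every tumor-like value other than those of Rsad2 and Isg15 lies between -1 and 1.

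Each animal could also be read in parts, as CPM without TMM scaling. In the 7 sublibraries Rsad2 ranged from 39.8 to 53.2 CPM in RP1 and from 29.99 to 58.2 in RP2. The ranges were 14.4 to 17.9 for RPC1 and 11.3 to 25.1 for RPC2. Every RPC value lay below every RP value, in the sublibraries and in the barcoding wells of the first round, and for Eif2ak2 every RPC value lay above every RP value in both. These parts repeat the measurement of the same nuclei suspension and are not further animals. Within animals the tumor-like nuclei fell into clusters, most of which came largely from 1 animal. In clusters of 200 or more nuclei of an animal, Rsad2 ranged from 9.05 to 90.3 CPM across 6 clusters of RP1, from 23.1 to 41.7 across 3 of RP2, from 13.99 to 19.1 across 3 of RPC1 and from 13.2 to 88.6 across 4 of RPC2. By cluster the genotypes thus overlapped for Rsad2. The cluster at 88.6 CPM in RPC2 held 257 nuclei and 54 Rsad2 transcripts, and a single RPC2 tumor-like nucleus held 48 Rsad2 transcripts. Usp18 was at 40.8 to 61.1 CPM in all 3 clusters of RPC1 and at or below 35.8 in every cluster of the other animals.

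Rsad2 lies on chr12:26492745-26506451 (GRCm39, minus strand) and overlaps no other annotated gene. The 8 tested genes within 1 Mb of it had a median log2 fold change of -0.16. Eif2ak2 lies on chr17:79159972-79190012 (minus) and overlaps 3 genes of the opposite strand, and the tested genes within 1 Mb had a median of 0.36, in the same direction as Eif2ak2 itself. Usp18 lies on chr6:121222848-121247877 (plus), where the neighbors had a median of 0.01. For Isg15, on chr4:156283883-156285303 (minus), the neighbors' median was 0.24, and for Ifit1, on chr19:34618271-34632174 (plus), it was 0.34, both opposite in sign to the gene. The Ifit1 median, over 13 genes, was the value of Ifit3, itself a member of few transcripts. Over the tested genes of the whole chromosome the median was -0.11 for Isg15 and -0.25 for Ifit1, both in the sign of the gene. It was also in the sign of the gene for Usp18, at 0.12, but opposite for Rsad2, at 0.05, and for Eif2ak2, at -0.04. Of the 37 members 19 overlap a gene on the opposite strand, and whether reads were counted by strand is not given in the sources used here, so the counts of Eif2ak2, Isg15, Usp18 and Ifit1 may include reads of such a partner.

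The rest of the pathway was read from a list of 102 other genes, of which 101 were in the files. Of the 73 tested in tumor-like nuclei none passed the edgeR test, 5 were higher and 4 lower at an unadjusted p under 0.05, and the median log2 fold change was -0.02. These 9 are 12.3% of the 73, below the 15.1% of all genes at that threshold. Among receptors and kinases the smallest p was that of Tyk2, the kinase bound to Ifnar1, at 20.8 and 23.6 CPM in RP and 14.6 and 15.7 in RPC (-0.56 ± 0.19). Among sensors it was Tlr3, an endosomal receptor for double-stranded RNA, at 0.376 and 0.771 in RP and 1.84 and 1.18 in RPC (1.39 ± 0.50). Among induced genes it was Helz2, a helicase, at 26.5 and 46.0 in RP and 14.3 and 19.2 in RPC (-1.12 ± 0.33), and next Oas1c, at 5.79 and 4.59 against 16.2 and 8.72 (1.26 ± 0.38). These 4 genes were apart between RP and RPC, and the adjusted p lay between 0.288 and 0.315 by edgeR. Interferon transcripts were almost not seen. Of 20 interferon genes 15 had no transcript in the compared classes, and the other 5 had 10 transcripts together, 3 of them Ifng in tumor-like nuclei.

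To ask whether the effectors were on in many nuclei or few, each nucleus was thinned to 1000 transcripts and the nuclei with transcripts of the 13 effectors were counted. At least 1 effector was seen in 11.2% of 6329 tumor-like nuclei of RP1 (95% Wilson interval 10.5 to 12.04), 11.7% of 6487 of RP2 (10.9 to 12.5), 12.2% of 8992 of RPC1 (11.6 to 12.9) and 11.9% of 8237 of RPC2 (11.2 to 12.6). The RPC shares were the higher, with intervals that overlap those of RP1 and RP2. Thinning left out 782, 731, 131 and 417 shallower nuclei. Transcripts of 3 or more different effectors were found in 7 nuclei of RP1 (0.111%, 0.0536 to 0.228), 23 of RP2 (0.355%, 0.236 to 0.532), 5 of RPC1 (0.0556%, 0.0238 to 0.13) and 3 of RPC2 (0.0364%, 0.0124 to 0.107). RP2 thus had the largest share of such nuclei, with an interval above those of the other 3 animals. Both RP animals lay above both RPC animals, with p = 0.333 in the exact permutation test, the smallest it can give. Without thinning the order was the reverse, with 2.57% and 4.06% in RP against 5.56% and 4.85% in RPC, where the RPC nuclei are the deeper. Without thinning 1 or more effectors were seen in 25.4% and 27.5% of RP and 40.8% and 34.8% of RPC nuclei. The intervals cover counting error only.

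**Figure D3:**
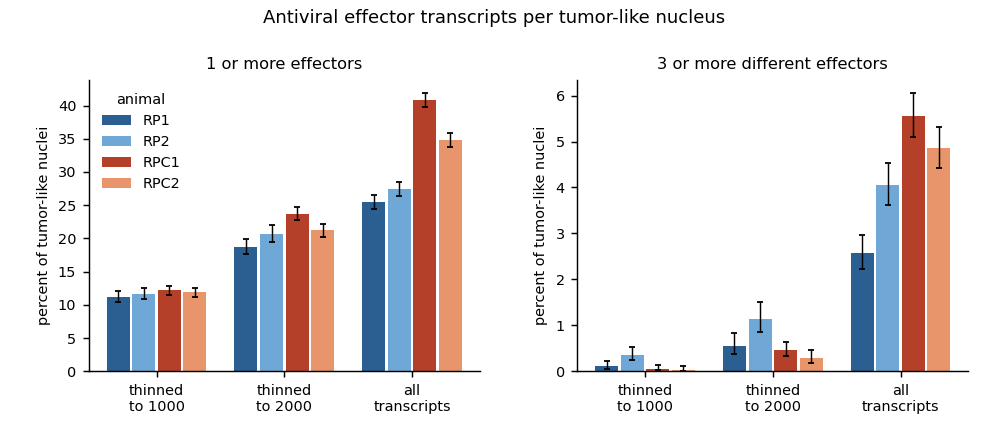
Percent of tumor-like nuclei of each animal with transcripts of 1 or more (left) and of 3 or more different (right) antiviral effectors, as columns with 95% Wilson intervals, for nuclei thinned to 1000 transcripts, thinned to 2000 and not thinned. At 1000 transcripts RP2 has the highest share with 3 or more, 0.355%, and without thinning both RPC animals, at 5.56% and 4.85%, are above both RP animals.

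In endothelial-like nuclei, between 92 and 177 per animal, the members with animals apart were all lower in RPC. Their 10 endothelial markers, none of them at 0, summed to 2577 to 4628 CPM against 25.8 to 53.8 in tumor-like nuclei. Of the 37 members 26 had enough counts to be tested, and 11 that did not, among them Isg15, Mx1 and Gbp2, are not counted here. None of the 26 passed the edgeR test, against 4 of 9543 genes (0.0419%). At an unadjusted p under 0.05 there were 5 members (Stat2, Mx2, Oas2, Rsad2 and Parp14) against 12.1% of all genes, and all 5 were lower in RPC, where 6.69% of all genes were lower at that threshold. By DESeq2 there were 2 at that threshold and none was called. The animals were apart for 11 members, where 46.1% of all genes were apart, and all 11 were lower, where 22.6% of all genes were apart and lower. The median log2 fold change of the 26 was -0.21 against 0.00 over all genes. It ranged from -0.48 without RPC1 to -0.065 without RPC2.

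Rsad2 was at 46.7 and 53.4 CPM in RP endothelial-like nuclei and 12 and 11.0 in RPC, a log2 fold change of -2.13 ± 0.37 with an adjusted p of 0.145 by edgeR and 0.262 by DESeq2. The genotypes were apart, on 20 and 42 transcripts in RP and 10 and 17 in RPC. With the animal number as a block the adjusted p by edgeR was 0.0491, but nothing in the labels says that the animals were paired. Its levels were close to those of the tumor-like nuclei of the same animals, and the neuroendocrine markers stood at 67.2% to 82.8% of their tumor-like level in this class. Their part in the result was not tested. Parp14 was at 103 and 97.9 CPM in RP and 63.8 and 42.2 in RPC (-0.94 ± 0.28), above its tumor-like level in every animal. Stat2 was at 110 and 89.0 against 59.0 and 65.6 (-0.65 ± 0.25), Oas2 at 30.4 and 39.4 against 15.7 and 16.9 (-1.11 ± 0.38) and Mx2 at 14 and 16.5 against 7.23 and 5.19 (-1.35 ± 0.54). For each of these the 2 RPC animals lay below the 2 RP animals. Eif2ak2 was at 107 and 90.3 in RP and 78.3 and 65.6 in RPC, the other direction than in tumor-like nuclei. Of 43 tested genes of the other pathway list none passed the edgeR test, and the median was -0.33. At an unadjusted p under 0.05, 10 were lower, or 23.3%, and none higher, where 6.69% of all genes were lower. Among them Rigi, which encodes the RNA sensor RIG-I, was at 67.7 and 44.5 CPM in RP and 28.9 and 29.9 in RPC (-0.89 ± 0.33). Of the 27 induced genes tested 7, or 25.9%, were lower at the same threshold. The 3 of smallest p were Helz2, at 58.4 and 104 against 38.5 and 28.6 (-1.34 ± 0.35), Gbp9, at 74.7 and 72.5 against 42.2 and 30.5 (-1.04 ± 0.29), and Rnf213, at 402 and 314 against 199 and 208 (-0.81 ± 0.22). Within the 9543 genes these differences did not reach an adjusted p of 0.05.

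In macrophage- or monocyte-like nuclei, between 160 and 317 per animal, 34 members were tested and no common direction was seen. The 12 macrophage markers summed to 1185 to 2111 CPM in this class against 18 to 24.1 in tumor-like nuclei. None of the 34 passed the edgeR test, against 1 of 11902 genes (0.0084%). There were 2 at an unadjusted p under 0.05, against 11.2% of all genes, and 1 by DESeq2 at that threshold, which called none. The animals were apart for 11, 4 higher and 7 lower, against 44.2% of all genes, and the median log2 fold change was -0.04. Sting1 was at 13.6 and 17.8 CPM in RP and 6.34 and 1.81 in RPC (-1.91 ± 0.59, adjusted p = 0.399), on 62 transcripts. Irf7 was at 6.78 and 8.08 in RP and 2.64 and 2.42 in RPC (-1.54 ± 0.54, adjusted p = 0.417), on 31 transcripts. Both genes were lower in both RPC animals at these low counts. Mx1 was at 10.6 and 17.8 in RP and 23.2 and 20.6 in RPC, and Gbp7 at 16.5 and 27.5 against 40.7 and 28.4, so that these 2 were higher in both RPC animals. Rsad2 overlapped in this class, at 39.7 and 26.4 CPM in RP and 19.0 and 36.3 in RPC. Whether its difference in tumor-like nuclei exceeds that in macrophage- or monocyte-like nuclei was not tested. Of 60 tested genes of the pathway list 1 was higher and 1 lower at an unadjusted p under 0.05, together 3.33%, against 11.2% of all genes. Tlr7, an endosomal RNA receptor, was at 25.2 and 39.3 against 67.6 and 50.8, and Helz2 at 49.4 and 49.5 against 25.4 and 25.4. Helz2 thus had both RPC animals below both RP animals in each of the 3 classes. The 3 classes come from the same 4 animals, and how many of all genes do the same was not counted.

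Effector transcripts were found in a larger share of nuclei of these 2 classes than of tumor-like nuclei in every animal. After thinning 18.8% to 24.5% of macrophage- or monocyte-like nuclei and 16.0% to 26.2% of endothelial-like nuclei held 1 or more, with no separation of the genotypes (p = 0.667 in the exact permutation test for each). At least 3 different effectors were found in 1 to 4 macrophage- or monocyte-like nuclei per animal and in 3 and 2 endothelial-like nuclei of RP and 1 and 0 of RPC, where 0 of 156 allows a share of up to 1.92% by a limit of 3 counts and 2.40% by the Wilson interval.

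The levels of the members were also compared across the classes of nuclei. These levels are CPM without TMM scaling, given as the mean ± SD of 4 animals, and the classes were formed from the same nuclei, so that no test was made. Classes with 20 or more nuclei in each animal were compared, 9 in all. The tumor-like mean was the lowest of the 9 for 19 of 37 members. This count was not made over all genes, so it does not show a trait of the members. All 4 animals of a class lay above all 4 of the tumor-like class for 18 members in macrophage- or monocyte-like nuclei (10% of all genes), 15 in alveolar type 2-like (7.5%), 14 in club-like, the airway secretory class (7.57%), and 12 in alveolar type 1-like nuclei (7.02%). The counts were 11 in T or NK cell-like (4.24%), 8 in endothelial-like (6.14%), 7 in B cell-like (4.55%) and 6 for the smooth muscle- or pericyte-like class (6.5%). In each class the members' share was above that of all genes, on 22 to 441 nuclei per animal. The genes of this background were not matched to the members by level. Small classes hold few transcripts, such as 99106 in alveolar type 2-like nuclei of RP1, where genes of low level are hardly counted. With an animal left out such a count can only stay or rise, for the members as for all genes. The endothelial-like count was 13 without RP2 (8.48% of all genes) and 14 without RPC2 (9.52%). The alveolar type 1-like count was 20 without RPC2 (8.89%) and the smooth muscle- or pericyte-like count 11 without RP2 (8.72%). The neuroendocrine marker transcripts counted in these classes are a further limit on the levels, and their part was not tested.

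**Figure D4:**
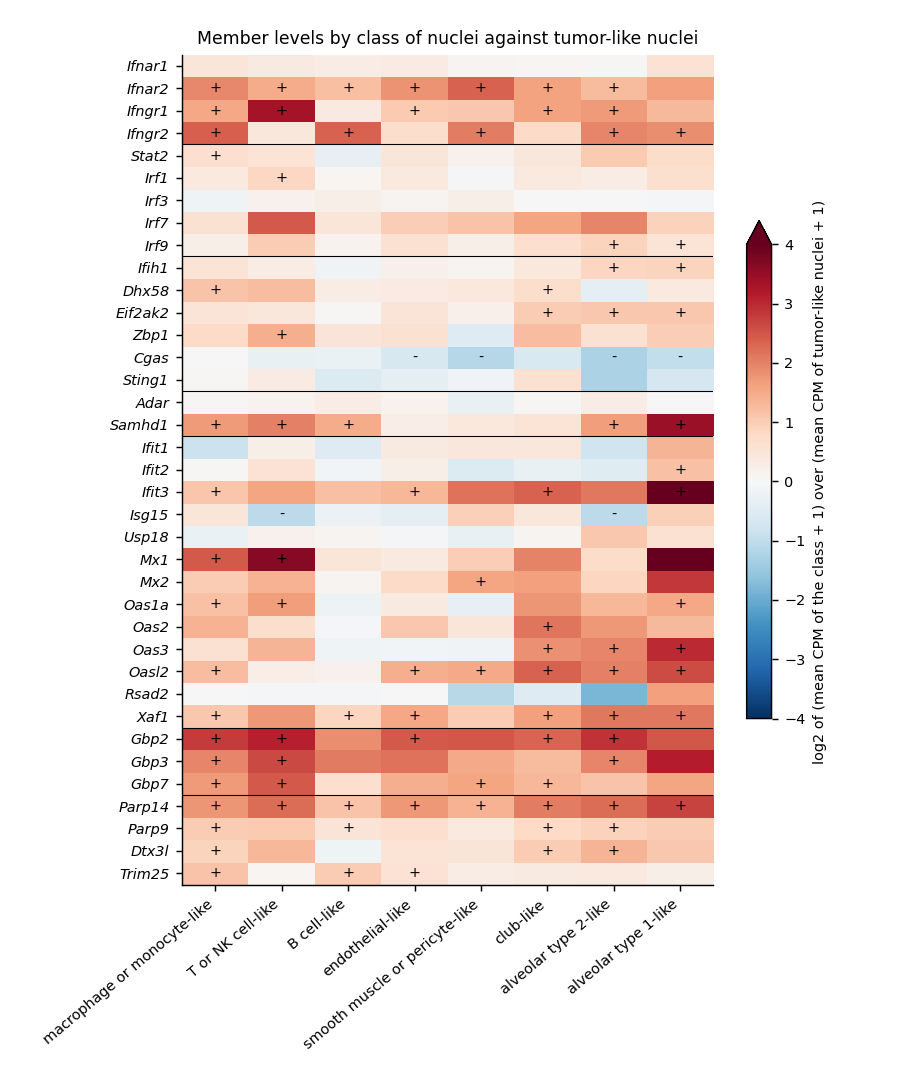
Color gives the log2 ratio of the mean CPM of each class to that of tumor-like nuclei, with 1 CPM added to both and the scale capped at 4, for the 37 members (rows, by group) in the 8 other classes (columns), and + or - marks all 4 animals above or below all tumor-like ones. Parp14 has a + in every column, Cgas has a - in 4, and Ifit3 and Mx1 in alveolar type 1-like nuclei exceed the color scale.

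Parp14 was the only member above the tumor-like class in all 8 others. It stood at 21.5 ± 6.43 CPM in tumor-like nuclei, 48.9 ± 18.3 in B cell-like, 74.9 ± 19.2 in macrophage- or monocyte-like and 145 ± 59.2 in alveolar type 1-like nuclei. Ifnar2 was above in 7 classes, at 16.1 ± 1.54 CPM in tumor-like and 63.3 ± 15.3 in macrophage- or monocyte-like nuclei. Oasl2 and Xaf1 were above in 6 each. Xaf1 stood at 10.3 ± 3.99 in tumor-like and 47.9 ± 2.70 in alveolar type 2-like nuclei. The interferon gamma receptor chains had different highest classes. Ifngr1 was highest in T or NK cell-like nuclei, at 136 ± 64.9 CPM against 12.7 ± 3.13 in tumor-like, and Ifngr2 in macrophage- or monocyte-like nuclei, at 49.1 ± 11.0 against 8.60 ± 1.70. In T or NK cell-like nuclei Ifngr2 was at 12.1 ± 3.07 CPM, and its animals overlapped those of the tumor-like class. Gbp2 stood at 0.329 ± 0.124 CPM in tumor-like and 8.22 ± 5.82 in macrophage- or monocyte-like nuclei, a ratio of 25.0.

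The order of the classes was mostly not resolved. For 36 of the 37 members the highest class overlapped the next one in its range over animals. The exception was Samhd1, at 503 ± 182 CPM in alveolar type 1-like and 181 ± 46.1 in T or NK cell-like nuclei, with 44.6 ± 5.04 in tumor-like nuclei. For 10 members no class was above the tumor-like one, namely Ifnar1, Irf3, Irf7, Cgas, Sting1, Adar, Ifit1, Isg15, Usp18 and Rsad2. Neither this count nor that of the 36 members was made over all genes. Cgas was the 1 member whose mean was highest in tumor-like nuclei, at 32.6 ± 3.63 CPM, next to 32.5 ± 2.06 in macrophage- or monocyte-like nuclei. All 4 animals were below the tumor-like class for Cgas in endothelial-like (20.7 ± 4.59), smooth muscle- or pericyte-like (14.1 ± 8.86), alveolar type 1-like (16.1 ± 11.4) and alveolar type 2-like nuclei (13 ± 2.90). Rsad2 in tumor-like nuclei ranked 3 of the 9 classes, at 29.4 ± 16.1, a spread that holds the difference between the genotypes.

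Some high class means came from 1 nucleus. In alveolar type 1-like nuclei Rsad2 was at 93.1 ± 108 CPM and Mx1 at 94.4 ± 156, spreads as large as the means. One alveolar type 1-like nucleus of RPC1, with 5120 transcripts in all, held 136 transcripts of 12 of the 13 effectors, 76.0% of the effector transcripts of its class in that animal. It held 44 of the 45 Mx1 transcripts, 29 of 33 of Rsad2, 22 of 28 of Ifit3 and 12 of 14 of Mx2. The summed effector level of these nuclei was 1295 CPM with it and 323 without. A club-like nucleus of RP2 held 129 effector transcripts, 41 of them Rsad2, among 62332 transcripts, and an alveolar type 1-like nucleus of RP2 held 60, 25 of them Rsad2. The highest tumor-like nucleus, of RP2, held 71 among 5191 transcripts, 43 of them Rsad2 and 12 Ifit1. Members above the tumor-like class were also counted without the nucleus of most effector transcripts in each animal and other class. The tumor-like class kept all its nuclei. The counts were 18 in macrophage- or monocyte-like (10.05% of all genes), 14 in club-like (7.37%) and 13 in alveolar type 2-like nuclei (7.31%). They were 10 in alveolar type 1-like (7.08%), 9 in T or NK cell-like (4.17%) and 9 in endothelial-like nuclei (6.27%). The B cell-like count was 7 (4.59%) and the smooth muscle- or pericyte-like count 5 (6.49%).

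**Figure D5:**
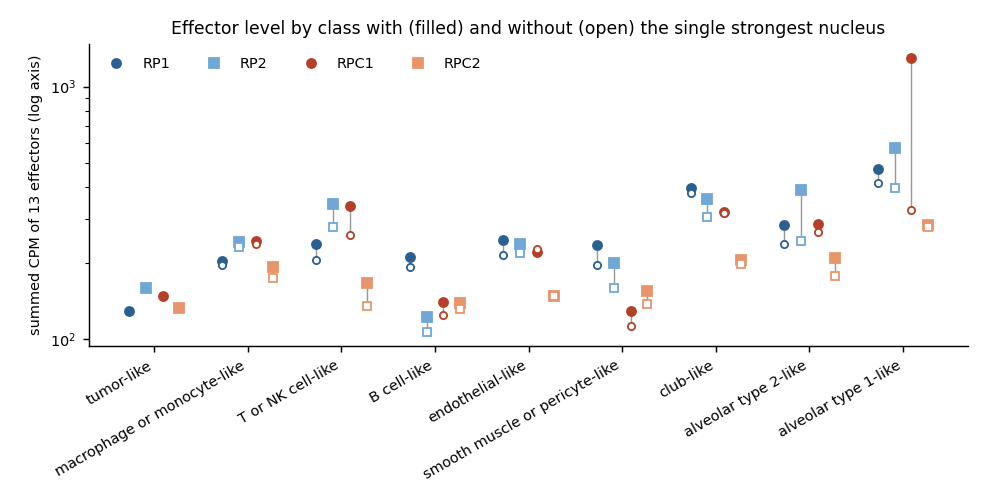
Summed level of the 13 antiviral effectors (CPM, log axis) in each class and animal, with all nuclei (filled) and, outside the tumor-like class, without the nucleus that held the most effector transcripts (open). The alveolar type 1-like nuclei of RPC1 differ most between the 2, at 1295 and 323 CPM.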

How the data were processed

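Nuclei of the 4 tumors were barcoded with the Parse Evercode kit. The authors aligned reads to GRCm39, separated them by animal with the Parse pipeline and deposited raw counts of transcripts per gene and nucleus, which were used as deposited. Groups followed the animal names in the labels. Of the 12 columns in the tables of nuclei 8 were not used.

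Nuclei with under 300 counts, over 10% mitochondrial transcripts or over 12000 genes were removed, as in the study. Clusters (Leiden, 20 principal components, resolution 0.4, without the members and pathway genes) were named from marker lists. A name needed a log2 marker score of 1 or more, 3 markers detected in 5% of nuclei and a depth of at most 4 times the median. The tumor-like name needed no other score of 0.5 or more. This naming rule was set after the clusters were seen, and rebuilt names may differ from the study's. No doublet caller was used, and an alternative left out nuclei above 4 times the median depth of their animal.

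Counts were summed per animal and class and tested with edgeR 4.0.16 (quasi-likelihood, TMM, filterByExpr, Benjamini-Hochberg over all genes tested). DESeq2 1.42.0, which the study used on sums per animal, was an alternative. The code was tested on simulated counts. A class was compared where each animal had 20 or more nuclei. Totals of tumor-like nuclei were 27496810 and 27475183 transcripts in RP and 52590671 and 45432590 in RPC. All members could be named, and of the pathway list the genes of smallest p in each class. The members, lists and rules were chosen with earlier results of these data known. Nothing in the labels says that the animals were paired. Gene positions are from the GENCODE annotation of GRCm39, and promoter sequences from RefSeq on GRCm38.p6, with no coordinates converted.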

Additional observations from a re-analysis of the deposited data

Results flagged for a closer look

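In tumor-like nuclei, 1 sublibrary of RP2 stood apart from the other 6 in Rsad2, at 58.2 CPM with the next at 40.8. The gap was 0.614 of the range of the 7 values. In RPC2 1 sublibrary was at 25.1 CPM with the next at 16.0, a gap of 0.657 of the range. Single nuclei of these animals held 43 and 48 Rsad2 transcripts. The test examined 12 groups of sublibraries, and chance alone marks about 1 group in 20. Leaving the values in or out does not make the RP and RPC sublibraries overlap, since the lowest RP value is 29.99 CPM.

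In 3 genes both animals of a genotype moved one way in 1 class and the other way in another. Eif2ak2 had a log2 fold change of 0.57 in tumor-like and -0.46 in endothelial-like nuclei. Adar had 0.24 in tumor-like and -0.055 in endothelial-like nuclei. Ifnar2 had -0.26 in tumor-like and 0.34 in macrophage- or monocyte-like nuclei. None of the single values passed the edgeR test, and these differences between classes were not tested.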

How the results depend on the processing

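No member was called by edgeR in tumor-like nuclei under the other settings run. DESeq2 called 1, Rsad2 (log2 fold change -1.47). At an unadjusted p under 0.05 there were 3 members, 5 by DESeq2, 6 with no filter on low counts and 2 to 5 when an animal was left out (5 without RP1 and without RPC2), and the members' median ranged from -0.32 to 0.26. In endothelial-like nuclei 1 member was called with no filter (Rsad2, -2.06) and 1 with the replicate block (Rsad2, -2.13). There were 2 at an unadjusted p under 0.05 by DESeq2 and 2 to 7 with an animal left out (2 without RPC2, 3 without RP2), with medians from -0.48 to -0.065. In macrophage- or monocyte-like nuclei 1 was called with no filter (Sting1, -1.89). There was 1 at an unadjusted p under 0.05 by DESeq2, 4 with no filter and 1 to 4 with an animal left out (1 without RP2, 4 without RPC1), with medians from -0.25 to 0.10. Over all genes the calls were 0 in tumor-like nuclei but 653 by DESeq2, 18 with no filter and 3 without RPC2. In endothelial-like nuclei they were 4 but 35, 338 and 2 to 38 with an animal left out, and in macrophage- or monocyte-like nuclei 1 but 32, 458 and 6 to 42. With no filter, genes of few counts enter the fit.

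The animals share only a number. Their deviations from the genotype means correlated at -0.05 in tumor-like, 0.10 in endothelial-like and -0.10 in macrophage- or monocyte-like nuclei. With the number as a replicate block, 0, 65 and 4 genes were called in these classes, against 0, 4 and 1 without it, and 4 members were at an unadjusted p under 0.05 in tumor-like nuclei.

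With an animal left out, members above the tumor-like class numbered 13 to 20 in alveolar type 1-like, 11 to 14 in endothelial-like and 7 to 11 in smooth muscle- or pericyte-like nuclei. These counts can only stay or rise when an animal is left out. The shares of all genes were 8.89% to 9.74%, 8.48% to 9.52% and 8.59% to 9.08% in the same order. The RPC minus RP difference in the share of nuclei with effectors followed the depth, in percentage points. For 1 or more effectors in tumor-like nuclei it was 0.59, 2.69 at 2000 transcripts and 11.4 unthinned, and for 3 or more -0.19, -0.47 and 1.89. In macrophage- or monocyte-like nuclei it was 2.11, -0.29 and 11.9 for 1 or more, with -0.45 to 4.66 when an animal was left out, and 8.13 unthinned for 3 or more. In endothelial-like nuclei it was -2.97, 2.36 and 7.30 for 1 or more, with -7.32 to 1.38 when an animal was left out, and -2.04, 0.79 and 5.80 for 3 or more. Under the alternatives 139 further values of these comparisons and 239 of single genes kept their direction and side of the threshold or moved by less than the limits set. The count of members above the tumor-like class without the nucleus of most effector transcripts, and the fit without the tumor-like cluster led by neuronal genes, were chosen after seeing the data. Depth limits Gbp2, Ifit3 and Isg15 most, and 2 animals per genotype limit every test.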
